A study of Mus musculus with 89 samples.

Results

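The group described here is PBS-challenged mice that were given CuO NH3, the methylaminated derivative of CuO, at 10 μg per mouse per day (CuO NH3 10). It was set against PBS-challenged mice that received no nanomaterial (PBS controls). Membership follows the sample labels, which give 4 CuO NH3 10 samples and 7 PBS controls out of 89 samples in 26 groups. All groups were female BALB/c mice of 6 to 8 weeks that had been sensitized with OVA in Alum on days 1 and 10, so the PBS controls were sensitized animals too. Nanomaterial was given by oropharyngeal aspiration on 4 consecutive days, the mice were challenged with PBS or OVA, and lungs were collected 24 h after the last exposure. Labels give 8 mice per group, and each sample was an independent pool of 2 RNA samples hybridised in Cy3 or Cy5 to a 2-colour Agilent mouse array. The 7 control pools need more RNA samples than 8 mice give, and which mice went into which pool is not given in the sources used here. The lungs had been lavaged before tissue was taken, which washes out cells of the airspace. The p-values rest on the spread between pools within all 26 groups, left after dye and array, and not on the compared groups alone. Pools that shared mice would not be independent, and the p-values take no account of that.

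Copper oxide particles that reach the lung are met by alveolar macrophages and by the airway epithelium, and they release copper ions as they dissolve. Cells answer excess copper with metallothioneins and oxidative stress with NRF2 target genes, and irritated epithelium and macrophages secrete chemokines that draw monocytes and neutrophils from the blood. Serum amyloid A, lipocalin and orosomucoid are acute phase proteins that the lung itself can make, and repair after injury brings cell division and new matrix.

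Levels are log2 intensities after quantile normalization, averaged over the probes of a gene, with dye, slide and array position removed. Fold changes, standard errors (SE) and p-values come from a limma model of all 89 samples with dye and array as fixed terms, and genes were called where the Benjamini-Hochberg adjusted p was below 0.05 with a log2 fold change beyond 0.58 in either direction. Levels and fold changes come from different adjustments: over the 761 called genes the difference of the mean levels lay a median of 0.12 (largest 1.48) from the fitted log2 fold change, and in 2, Olfr462 and Gm19665, it had the opposite sign. Over the 160 called genes that are named or list members the largest gap was 0.51, with 0 of opposite sign. A level is not comparable between genes. No array held both a CuO NH3 10 sample and a PBS control, so the contrast was carried by arrays of other groups. The exposed samples lay on slides 4, 5, 5 and 6, and the controls on slides 1, 2, 3, 4, 4, 5 and 6. Across the series 46.7 to 68.8% of spots were well above background, and the 11 samples compared ran from 53.3 to 68.4%. Samples of a group were alike, with correlations of 0.993 to 0.996 among the CuO NH3 10 samples and of 0.985 to 0.995 among the controls. The median SD of a gene was 0.09 in the exposed group and 0.10 in the controls.

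CuO NH3 10 changed 761 of 22911 genes (3.32%), and the change was mostly upward. 601 genes were called higher (2.62%) and 160 lower (0.698%), while the median log2 fold change over all genes was -0.01. 35 genes rose by more than 4-fold and 3 fell by more than 4-fold. The largest rises were chemokines (Cxcl5, Ccl2, Ccl7, Cxcl1 and Cxcl13), acute phase proteins (Saa3, Saa1 and Orm1), the anion exchanger Slc26a4, Retnla, Spp1 and Timp1. Among the largest falls were the cytochromes Cyp2a5 and Cyp2a4, haemoglobin genes with Alas2, Igfbp3, the clock output gene Dbp, Fabp1, Pon1 and Cidec. Before any filter on the model, 11% of all genes had every exposed sample above every control and 8.45% had every exposed sample below, and of the called genes 583 and 142 were separated in this way. Of the genes called higher, 586 were well above background in 4 of 4 exposed samples, and 13 were not above background in any control.

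The size of the list depended on 1 library. Without CuO NH3 10 replicate 4 there were 271 calls, 241 higher and 30 lower, of which 260 were among the 761. Replicate 4 shared its array with a CuO PEG 10 sample, as did PBS control replicates 4, 6 and 7. No other exposed sample had an array mate from a group that was also paired with a control. Whether this link between the arrays bears on the smaller count was not tested. Leaving out any other exposed or control sample gave 555 to 819 calls. With only the 4 controls that shared slides 4 to 6 with the exposed samples, 506 genes were called, 436 higher and 70 lower, and 466 were among the 761. With the array as a random block 677 were called higher and 257 lower, and 558 of these were among the 761. Within single slides the direction was the same for nearly all calls: 755 of 761 on slide 4, 757 on slide 5 and 757 on slide 6. The genes were called from these same samples, so this agreement was largely set by the selection and is no separate support. These slides hold 1 or 2 samples per group and allow no test.

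**Figure D1:**
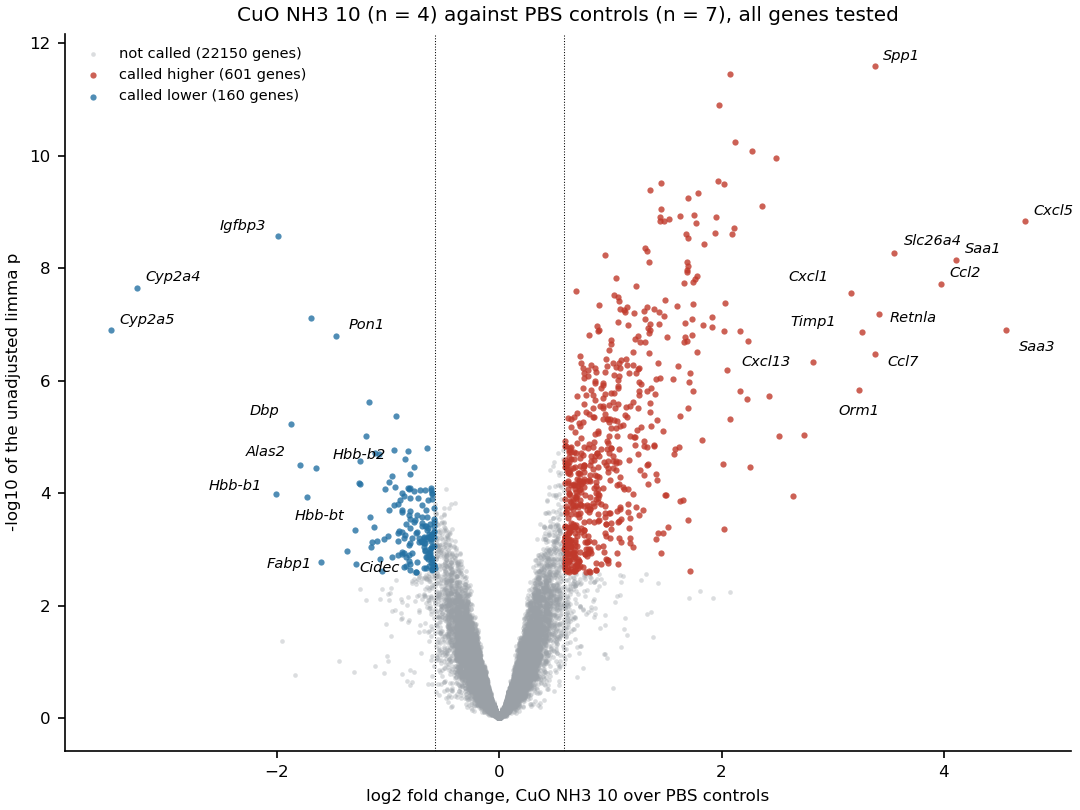
Each point is 1 of 22911 genes, with its log2 fold change of CuO NH3 10 (n = 4) over PBS controls (n = 7) on the x axis and -log10 of the unadjusted limma p on the y axis; dotted lines stand at an absolute log2 fold change of 0.58. The 601 genes called higher reach 4.73 (Cxcl5), and the 160 called lower reach -3.49 (Cyp2a5).

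CC chemokine ligands had the highest median change of the 25 process lists, and Cxcl5 had the largest change of all genes called. Cxcl5, which attracts neutrophils through CXCR2, stood at 10.17, 10.52, 10.86 and 10.63 in the 4 exposed samples and at 5.63 to 7.51 (median 6.03) in the controls. No exposed sample came near the controls, and 4 of 7 controls were above background. The log2 fold change of Cxcl5 was 4.73 ± 0.49 (SE), a 26.5-fold rise (limma adjusted p = 1.54e-06). Cxcl1, another neutrophil attractant, was 10.14, 10.63, 10.35 and 10.68 against 7.56 to 8.42 (median 7.63), a log2 fold change of 3.16 ± 0.39 (adjusted p = 1.27e-05). Cxcl13, a B cell attractant, was 9.69, 9.87, 11 and 9.72 against 6.77 to 7.95 (median 7.17), and its replicate 3 stood above the other 3. It rose by 2.82 ± 0.41 on the log2 scale (adjusted p = 9.34e-05).

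The monocyte attractants, ligands of CCR2, moved in the same way. Ccl2 was 12.01, 12.53, 12.41 and 12.50 in the exposed samples and 7.97 to 9.76 (median 8.85) in the controls, a log2 fold change of 3.97 ± 0.47 or 15.7-fold (limma adjusted p = 9.4e-06). Ccl7 was 9.65, 9.97, 9.92 and 9.82 against 6.34 to 7.69 (median 6.50), and rose by 3.38 ± 0.48 (adjusted p = 6.89e-05). For Cxcl5, Ccl2, Ccl7 and Cxcl1 alike, exposed replicate 1 was the lowest of the 4, and it lay above every control as the rule that chose these genes required. Ccl12 rose by 2.23 and Ccl8 by 2.64. Ccl3 and Ccl4, which macrophages and neutrophils release, rose by 2.08 and 2.02, Ccl17, a ligand of CCR4, by 2.05, Ccl9 by 1.40 and the CCR6 ligand Ccl20 by 1.41.

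Of 17 measured CC chemokine ligands 9 were called higher and none lower, with a median log2 fold change of 1.40. Of 15 CXC and CX3C chemokine ligands 7 were called higher and none lower, with a median of 0.79. These counts stand against 2.62% of all genes called higher and a median of -0.01. The eosinophil attractants Ccl11 (0.62, adjusted p = 0.172) and Ccl24 (0.43, adjusted p = 0.647) did not pass, nor did the interferon-induced Cxcl10, although its exposed samples at 9.09 to 9.77 lay above the controls at 6.67 to 7.92 (2.08 ± 0.68, adjusted p = 0.0811). The neutrophil attractant Cxcl2 was 6.61 to 6.97 against 5.79 to 6.45 and was above background in 1 of 7 controls (0.60, adjusted p = 0.194). Among 22 chemokine receptors 4 were called higher, including Cx3cr1 (0.81), Ccr2 (0.78) and the atypical receptor Ackr1 (0.68), and the median was 0.09. 6 CC chemokine ligands, 3 CXC and CX3C chemokine ligands and none of the chemokine receptors were called without CuO NH3 10 replicate 4.

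NF-κB is a transcription factor through which many of these ligands are induced, and the promoters of the called chemokines Cxcl1 and Ccl20 and of the cytokine gene Il6, also called higher, are shown for that reason. They are RefSeq sequences (GRCm38.p6) from 250 bases before to 50 bases after the gene start, read along the gene's strand: Cxcl1 (chr5:90890995-90891294, plus strand), Ccl20 (chr1:83116516-83116815, plus strand) and Il6 (chr5:30012864-30013163, plus strand). Capitals mark matches on either strand to the κB pattern, which is GGG, 2 bases of any kind and TTTCC.
Cxcl1: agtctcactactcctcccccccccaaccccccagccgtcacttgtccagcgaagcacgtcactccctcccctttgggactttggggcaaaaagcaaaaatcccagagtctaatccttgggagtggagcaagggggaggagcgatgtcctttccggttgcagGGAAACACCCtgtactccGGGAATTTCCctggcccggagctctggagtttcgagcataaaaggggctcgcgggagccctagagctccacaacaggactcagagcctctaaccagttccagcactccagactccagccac
Ccl20: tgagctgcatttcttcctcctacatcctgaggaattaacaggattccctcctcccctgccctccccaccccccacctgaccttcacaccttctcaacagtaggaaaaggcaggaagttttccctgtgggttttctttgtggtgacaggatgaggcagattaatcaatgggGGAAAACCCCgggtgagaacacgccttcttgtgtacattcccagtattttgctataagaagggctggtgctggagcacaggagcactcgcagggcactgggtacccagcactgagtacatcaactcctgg
Il6: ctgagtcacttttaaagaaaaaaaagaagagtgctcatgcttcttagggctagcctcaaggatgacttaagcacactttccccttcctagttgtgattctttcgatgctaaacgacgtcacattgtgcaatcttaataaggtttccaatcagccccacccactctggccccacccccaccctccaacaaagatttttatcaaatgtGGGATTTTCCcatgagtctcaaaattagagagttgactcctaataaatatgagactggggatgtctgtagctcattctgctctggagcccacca
Cxcl1 held 2 matches, and Ccl20 and Il6 held 1 each. Over all 27025 promoters 1.62% held the pattern, over the 18077 tested genes with a promoter 1.49%, over 472 genes called higher 3.6% and over 119 called lower 0%. A match is a description of the letters and not evidence that the site was bound.

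The cytokines themselves moved less. Il6 was 6.35, 6.92, 6.83 and 7.06 against 5.49 to 6.22 (median 5.80) and was above background in 2 of 7 controls; it rose by 1.23 ± 0.28 (limma adjusted p = 0.00817). The other called innate cytokines of 23 measured were the IL-1 receptor antagonist Il1rn (0.82) and Csf2 (0.66), with adjusted p values of 0.0499 and 0.0485. Il1b (1.06, adjusted p = 0.0901) and Tnf (0.77, adjusted p = 0.0893) were not called, although their exposed samples (9.82 to 10.11 and 7.23 to 7.49) all lay above the controls (8.63 to 9.22 and 6.44 to 6.68). Of 20 NF-kB feedback and targets genes, Bcl3 (0.87), the inhibitors Tnfaip3 (0.71) and Socs3 (0.65) and Nfkbie were called higher. Of 13 type 2 cytokines and alarmins the epithelial alarmin Il33 was the 1 call (0.89 ± 0.20, adjusted p = 0.0102), at 9.65 to 9.92 against 8.80 to 9.32, while Tslp was -0.40 (adjusted p = 0.241). None of the innate cytokines or NF-kB feedback and targets genes was called without CuO NH3 10 replicate 4.

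Acute phase proteins rose with the chemokines, 14 of 22 measured being called higher and none lower, with a median log2 fold change of 1.05. Saa3, the serum amyloid A that macrophages and epithelium make, was 15.30, 15.78, 15.60 and 15.72 in the exposed samples and 10.06 to 12.40 (median 11.27) in the controls. The Saa3 controls were widely spread, yet the highest lay well below the lowest exposed sample. Its log2 fold change was 4.56 ± 0.61, or 23.6-fold (limma adjusted p = 3.41e-05). Saa1 was 12.40, 12.87, 12.46 and 12.53 against 8.20 to 9.43 (median 8.54), with 1 control above the rest, and rose by 4.11 ± 0.46 (adjusted p = 4.62e-06). Saa1 and Saa2 (2.26), like Orm1 and Orm2, are close copies whose probes may share signal.

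Orm1, a plasma carrier protein, was 9.96, 10.18, 9.95 and 10.30 against 6.10 to 7.41 (median 6.72), a log2 fold change of 3.24 ± 0.50 (limma adjusted p = 0.000207), and Orm2 rose by 2.74. Lcn2, which binds bacterial siderophores, rose by 2.43 ± 0.39 and the protease inhibitor Serpina3n by 2.24 ± 0.31. The LPS co-receptor Cd14 was 11.80, 12.05, 12.17 and 11.89 against 9.73 to 10.22 (median 9.95), with both groups narrow, and rose by 2.11 ± 0.22 (adjusted p = 1.83e-06). C3, Hpx and Hp rose by 1.08, 1.06 and 1.04. Saa4 counts among the 14 but was not well above background in any of the 11 samples. Leaving out CuO NH3 10 replicate 4 kept 4 of the acute phase proteins called. Among those lost were Orm1, Orm2, Lcn2, Saa2, Saa4, C3, Hpx and Hp.

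**Figure D2:**
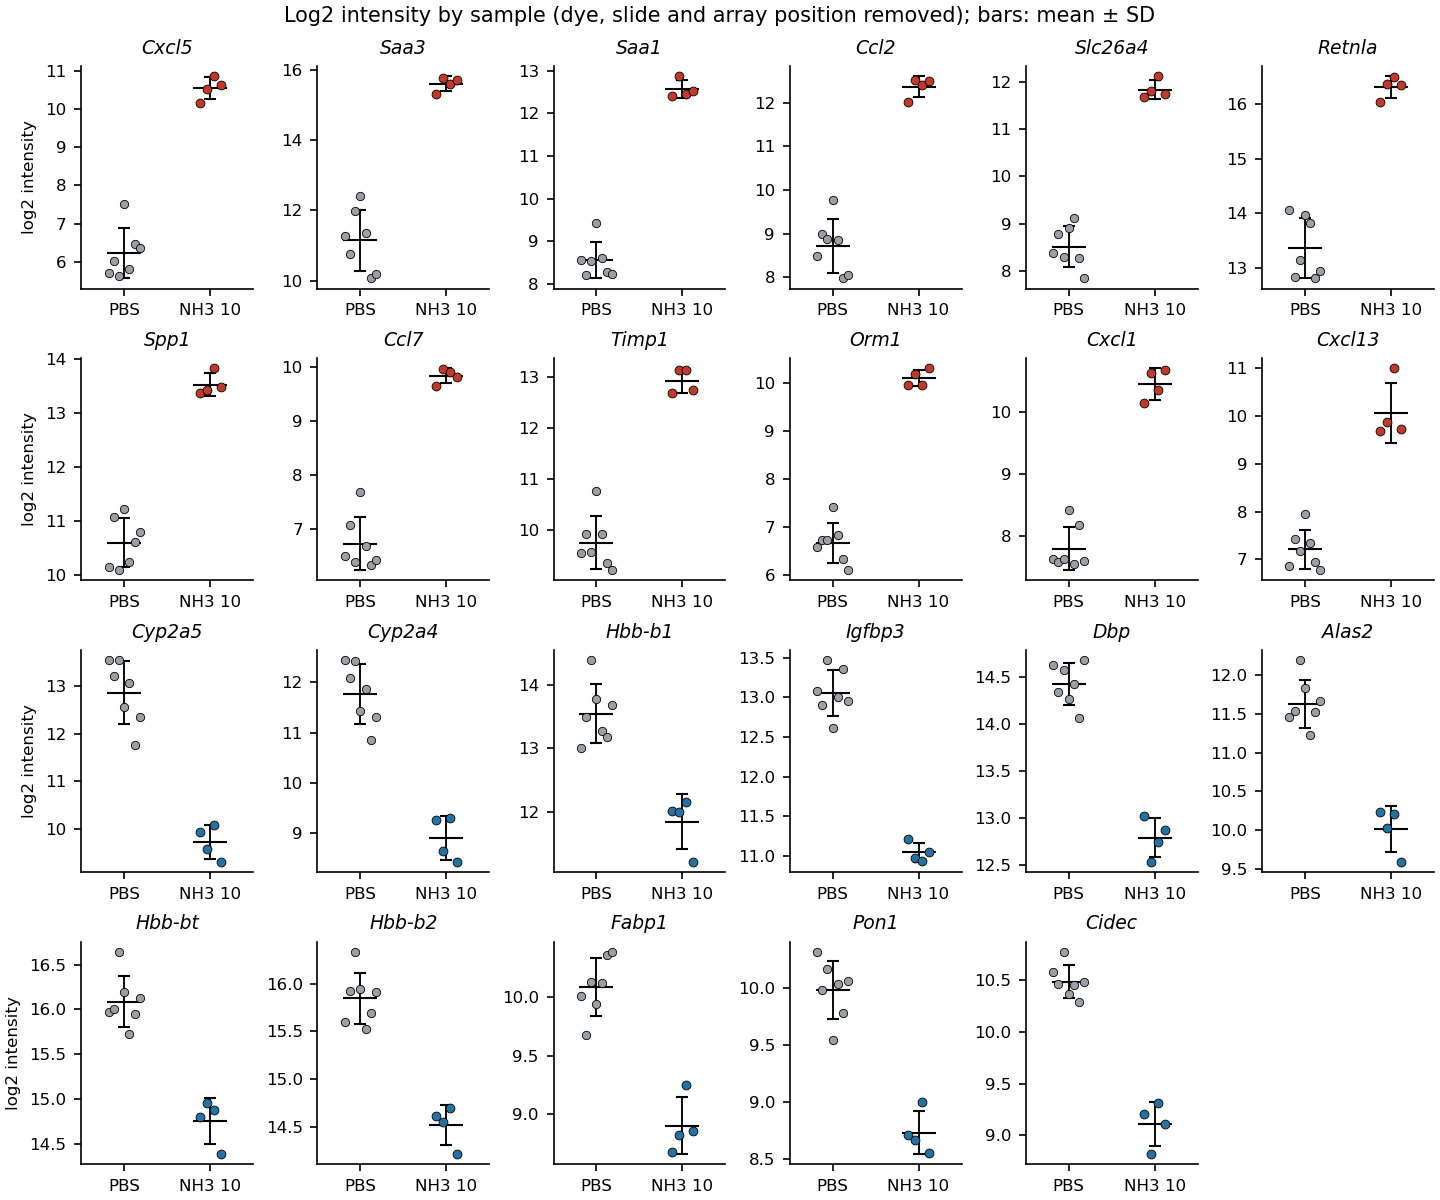
Log2 intensity of the 12 largest rises (red) and 11 of the 12 largest falls (blue) in each CuO NH3 10 sample (n = 4) and each PBS control (grey, n = 7), with dye, slide and array position removed; bars are the mean ± SD and each panel has its own axis. In all 23 panels the groups do not overlap, by the rule that chose them.

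Secreted proteins of repair and of the airway surface followed. Spp1, the matrix glycoprotein osteopontin, had the smallest p of the 24 genes with the largest changes. It was 13.37, 13.42, 13.83 and 13.48 in the exposed samples and 10.09 to 11.23 (median 10.61) in the controls, a log2 fold change of 3.38 ± 0.25 (limma adjusted p = 4.01e-08). Timp1, an inhibitor of matrix metalloproteinases, was 12.67, 13.13, 13.13 and 12.74 against 9.20 to 10.75 (median 9.56), and rose by 3.26 ± 0.44 (adjusted p = 3.52e-05). Retnla, a resistin-like protein of macrophages and epithelium, was 16.04, 16.38, 16.50 and 16.35 against 12.80 to 14.05 (median 13.13), a rise of 3.42 ± 0.44 or 10.7-fold (adjusted p = 2.16e-05). All 4 exposed samples exceeded all 7 controls for these genes, by the rule that chose them, and the SE of Spp1 was the smallest of them.

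Slc26a4, the epithelial anion exchanger pendrin, was 11.67, 11.80, 12.11 and 11.73 against 7.85 to 9.12 (median 8.39), and rose 11.7-fold (3.55 ± 0.40, limma adjusted p = 3.82e-06). It was accompanied in the airway mucus and secreted defence list by lactoferrin Ltf (1.72, adjusted p = 0.0482), Muc4 (0.98), Muc1 (0.65) and Pigr (0.63), 5 of 24 called higher and none lower. The gel-forming mucins were not called: Muc5ac was 0.15 (adjusted p = 0.931) and Muc5b 0.95 (adjusted p = 0.333). Leaving out CuO NH3 10 replicate 4 left 1 call in that list. In the list of resistin-like proteins, chitinases and arginase 4 of 9 were called higher, the others being Retnlb (1.47), Arg2 (1.18) and Chil1 (1.07), while Arg1 was 1.43 (adjusted p = 0.0654) with exposed samples of 8.31, 8.67, 9.46 and 8.44 above controls of 6.46 to 7.70. 2 of its members were called without replicate 4.

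Several matrix genes rose. Of 20 wound matrix and collagens genes 9 were called higher and none lower, with a median log2 fold change of 0.60. Beside Spp1 these were elastin (Eln, 1.29), the fibrillar collagens Col1a1 (1.27) and Col3a1 (1.18), thrombospondin Thbs1 (1.21), Tnc, Fbn1, fibronectin Fn1 (0.82) and the collagen cross-linker Lox. Col3a1 was 13.99, 13.86, 14.27 and 14.02 against 12.83 to 13.34 (median 13.10), with a limma adjusted p of 0.000347. Of 17 matrix proteases and inhibitors Timp1, the macrophage elastase Mmp12 (1.46), Mmp3 (1.37) and Mmp8 (1.18) were called higher, and 2 were called without CuO NH3 10 replicate 4. Mmp12 ran from 0.19 to 1.85 over 22 alternative settings and was not called in 7 of them, including the array as a random block, loess and leaving out PBS control replicate 2. The wound matrix and collagens list had 6 calls without CuO NH3 10 replicate 4.

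Cell division genes made the most complete group. Of 35 measured mitotic cell cycle genes 33 were called higher and none lower, with a median log2 fold change of 1.35, and 30 were still called without CuO NH3 10 replicate 4. The 2 that were not called were replication helicase subunits with smaller differences, Mcm4 (0.50 ± 0.12, limma adjusted p = 0.0146) and Mcm7 (0.39 ± 0.13, adjusted p = 0.0749). Mki67, the proliferation antigen, was 10.73, 11.02, 11.02 and 10.96 against 8.74 to 9.63 (median 8.97), a log2 fold change of 2.08 ± 0.16 (adjusted p = 4.01e-08). Rrm2, a subunit of ribonucleotide reductase, was 10.09, 10.48, 10.59 and 10.21 against 8.14 to 9.08 (median 8.32) and rose by 2.12 ± 0.19 (adjusted p = 3.27e-07). Top2a, which untangles DNA at mitosis, was 9.14, 9.35, 9.27 and 9.23 against 7.18 to 7.81 (median 7.34) and rose by 1.98 ± 0.16 (adjusted p = 9.5e-08). The exposed samples of each differed among themselves by less than their distance from the controls.

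The rise covered several stages of the cycle. Rrm2, Mki67 and Top2a had the largest log2 fold changes of the list. Mitotic kinases and their partners ranged widely, with Birc5 at 1.97, Ccna2 at 1.94, Aurka at 1.79, Cdk1 at 1.78, Ccnb2 at 1.77 and Plk1 at 1.41, but Bub1b at 0.97, Aurkb at 0.89 and Ttk at 0.81. Beside Rrm2 the DNA synthesis enzymes Tk1 and Tyms were higher by 1.49 and 1.27, while the replication helicase subunits Mcm6, Mcm5, Mcm2 and Mcm3 rose by 1.03, 0.98, 0.82 and 0.81. The sliding clamp Pcna had the smallest called change (0.68 ± 0.12, limma adjusted p = 0.000824), at 12.23 to 12.41 against 11.71 to 11.88. Cell number and RNA per cell cannot be told apart in bulk lung tissue, so neither a larger share of dividing cells nor more transcript in each is distinguished here. Of 20 p53 targets only Gadd45g was called higher (1.02), and their median was 0.07.

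Cdc20 and Cdk1 are printed because they belong to this most complete group and their promoters carry the sequence that cell cycle genes commonly share. The windows are again RefSeq GRCm38.p6, Cdc20 at chr4:118437294-118437593 and Cdk1 at chr10:69352863-69353162, both on the minus strand and written along the gene. Capitals mark TTTGAA, the core of the cell cycle homology region that MuvB complexes bind, searched on both strands after the values were seen.
Cdc20: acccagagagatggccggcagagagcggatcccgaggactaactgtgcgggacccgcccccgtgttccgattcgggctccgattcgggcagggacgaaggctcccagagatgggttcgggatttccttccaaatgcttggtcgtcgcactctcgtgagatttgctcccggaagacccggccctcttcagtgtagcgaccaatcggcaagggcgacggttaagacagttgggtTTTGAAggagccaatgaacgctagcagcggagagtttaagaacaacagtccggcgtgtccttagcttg
Cdk1: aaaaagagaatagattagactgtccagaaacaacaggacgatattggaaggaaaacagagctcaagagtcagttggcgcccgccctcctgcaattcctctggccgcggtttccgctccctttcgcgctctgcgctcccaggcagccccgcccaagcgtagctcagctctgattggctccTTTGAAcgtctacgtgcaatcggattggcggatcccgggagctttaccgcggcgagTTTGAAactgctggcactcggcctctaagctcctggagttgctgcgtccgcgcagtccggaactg
Cdc20 held 1 match and Cdk1 held 2. Of 29 mitotic cell cycle genes with a promoter 15 (51.7%) held TTTGAA, against 18.1% of all promoters of this length and 16% of those of the genes tested. The shares were 26.1% for genes called higher and 11.8% for genes called lower. CCAAT, the box of NF-Y, was in 23 of the 29 (79.3%), in 37.9% of all promoters and in 38.7% of those of the genes tested. Cdc20 itself was 10.51, 10.79, 10.92 and 10.45 against 8.63 to 9.36 (median 8.90), a rise of 1.84 ± 0.20 (limma adjusted p = 2.85e-06), and Cdk1 was 8.19, 8.63, 8.67 and 8.35 against 6.45 to 7.04 (median 6.60), a rise of 1.78 ± 0.21 (adjusted p = 7.76e-06).

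Metal-binding genes split sharply. Mt2 was 13.03, 13.47, 13.61 and 13.67 in the exposed samples and 11.25 to 12.12 (median 11.52) in the controls, a log2 fold change of 2.36 ± 0.24 or 5.13-fold (limma adjusted p = 1.37e-06). Mt1 was 10.66, 10.75, 11.19 and 11.41 against 9.76 to 10.45 (median 10.04), a rise of 1.15 ± 0.14 (adjusted p = 1.87e-05). Both metallothioneins, which bind copper and zinc, were lowest in exposed replicate 1 and highest in replicate 4. The metalloreductase Steap4 rose by 1.83 ± 0.24 and the copper-carrying ferroxidase ceruloplasmin (Cp) by 0.78 ± 0.13. The other 17 of 21 metallothionein and copper handling genes were not called, and the median of the list was 0.03: the importer Slc31a1 was -0.01, the exporters Atp7a and Atp7b were -0.22 and -0.27 (adjusted p = 0.254 and 0.363), and the copper chaperone Ccs was 0.07.

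Mt1 and Mt2 lie beside each other in the genome and rose together, so their promoters are shown (RefSeq GRCm38.p6, plus strand, Mt1 at chr8:94178839-94179138 and Mt2 at chr8:94172368-94172667). Capitals mark the core of the metal response element of MTF1, TGCACNC or TGCGCNC on either strand.
Mt1: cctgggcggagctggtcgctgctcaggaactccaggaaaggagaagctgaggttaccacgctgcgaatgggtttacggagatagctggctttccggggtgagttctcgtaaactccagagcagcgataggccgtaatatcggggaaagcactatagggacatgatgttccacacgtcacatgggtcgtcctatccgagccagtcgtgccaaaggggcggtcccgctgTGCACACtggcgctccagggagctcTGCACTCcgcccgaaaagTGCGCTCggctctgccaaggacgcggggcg
Mt2: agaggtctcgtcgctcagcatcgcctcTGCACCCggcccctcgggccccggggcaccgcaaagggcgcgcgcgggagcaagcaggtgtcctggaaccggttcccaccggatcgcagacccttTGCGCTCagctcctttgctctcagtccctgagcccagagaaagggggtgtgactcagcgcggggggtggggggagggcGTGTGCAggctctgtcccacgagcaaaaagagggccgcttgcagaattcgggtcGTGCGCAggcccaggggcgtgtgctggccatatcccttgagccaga
Mt1 held 3 matches and Mt2 held 4. The core is short and common: 25.6% of all promoters held at least 1, as did 29.2% of those of the genes tested. The shares were 30.9% for genes called higher and 30.3% for genes called lower.

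Some oxidative stress genes changed, in both directions, and no heat shock gene was called. Of 30 Nrf2 antioxidant targets 4 were called higher (13.3%) and 2 lower (6.67%), with a median of 0.23, and 17 of the 30 had an unadjusted limma p under 0.05, as did 4182 of all 22911 genes. Hmox1, which degrades heme, was 11.30, 11.17, 11.33 and 11.38 in the exposed samples, while the controls ran from 8.15 to 10.82 (median 10.15). It rose by 1.25 ± 0.23 (limma adjusted p = 0.00163). Akr1b8 rose by 1.07, the glutathione synthesis subunit Gclc by 0.76 and ferritin Fth1 by 0.63, although Fth1 came to -0.02 with loess normalization. The phase II enzymes Gstm1 and Ephx1 fell by 0.95 and 0.81, and Nqo1 was 0.10 (adjusted p = 0.817). None of 18 heat shock proteins was called by limma, 3 having an unadjusted p under 0.05: Hspa1a was 11.29 to 11.81 against 9.39 to 11.35 (1.38 ± 0.62, adjusted p = 0.228), with exposed and control samples overlapping. Without CuO NH3 10 replicate 4 the calls among Nrf2 antioxidant targets were 0 higher and 1 lower.

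The deepest falls were in xenobiotic enzymes. Cyp2a5 and Cyp2a4, cytochromes of club cells and liver whose probes may share signal, had the largest decreases. Cyp2a5 was 9.95, 9.58, 10.09 and 9.31 in the exposed samples and 11.76 to 13.54 (median 13.07) in the controls, 11.2-fold lower (-3.49 ± 0.47, limma adjusted p = 3.41e-05). Cyp2a4 was 9.26, 8.66, 9.31 and 8.43 against 10.86 to 12.44 (median 11.87), 9.61-fold lower (-3.26 ± 0.39, adjusted p = 1.06e-05). In both, exposed replicates 2 and 4 lay below replicates 1 and 3. The esterase Pon1 was 8.71, 8.67, 9 and 8.56 against 9.54 to 10.31 (median 10.03) and fell by 1.47 (SE 0.20, adjusted p = 3.83e-05).

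Igfbp3, an endothelial and stromal binder of insulin-like growth factors, was 11.22, 10.98, 10.94 and 11.05 in the exposed samples and 12.61 to 13.47 (median 13.01) in the controls. Its exposed values were tightly spaced and its fall of 1.99 (SE 0.21) had a limma adjusted p of 2.2e-06. Red cell genes fell together: Hbb-b1 was 12.02, 12.00, 12.16 and 11.21 against 13 to 14.39 (median 13.50), 4.04-fold lower (-2.01 ± 0.43, adjusted p = 0.00557), and Alas2, the erythroid enzyme of heme synthesis, was 10.23, 10.03, 10.21 and 9.59 against 11.22 to 12.19 (median 11.54), 3.47-fold lower (-1.79 ± 0.35, adjusted p = 0.00226). Replicate 4 was the lowest exposed sample for Hbb-b1, Alas2, Hbb-bt and Hbb-b2. The haemoglobin beta genes are close copies, and their probes may share signal. Without replicate 4, and with dye and array in the model, none of Hbb-b1, Hbb-bt, Hbb-b2 or Alas2 was called.

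Several clock genes fell. Dbp, a transcription factor driven by the core clock, was 13.02, 12.53, 12.74 and 12.87 against 14.06 to 14.68 (median 14.43), 3.65-fold lower (-1.87 ± 0.32, limma adjusted p = 0.000616). Per1 (-1.29), Tef (-0.90), Per3 (-0.87) and Cry2 (-0.77) were also called lower, and Nfil3, which acts opposite to Dbp on shared sites, was called higher (0.89 ± 0.17, adjusted p = 0.00236). That makes 1 higher and 5 lower of 19 circadian clock genes, with a median of -0.58, against 0.698% of all genes called lower. The repressor Nr1d1 (-0.94, adjusted p = 0.124) and the activator Arntl (0.33, adjusted p = 0.314) were not called, although in both the exposed samples lay apart from the controls (9.57 to 10.04 against 10.10 to 10.95, and 7.04 to 7.24 against 6.58 to 6.99). The hour at which each group was killed is not given in the sources used here. Without CuO NH3 10 replicate 4 the circadian clock list had 1 higher and 1 lower, and with controls of the same 3 slides 0 higher and 1 lower. Per1 is also the 1 call, lower, among 9 glucocorticoid response genes, whose median was -0.54.

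The remaining lists were small or quiet. Of 17 complement genes 6 were called higher, led by the macrophage-made C1qb (1.47), C1qa (1.37) and C1qc (1.34) and the receptor C3ar1 (1.26), with a median of 0.46, and none was called without CuO NH3 10 replicate 4. Pattern recognition receptors had 4 of 19 higher (Cd14, Clec4d, Msr1 at 1.51 and Tlr13) and inflammasome and cell death genes 3 of 15 (Pycard, Casp4 and Ripk3). Cholesterol synthesis and uptake had 4 of 23 higher (Mvd, Fdps, Sqle and Cyp51 at 0.65 to 0.72), with 23 of 23 positive and a median of 0.35. Over all genes 2.62% were called higher. Without CuO NH3 10 replicate 4 neither the cholesterol list nor the inflammasome and cell death list had a gene called higher. Cyp1b1 (0.87) was the 1 call of 9 aryl hydrocarbon receptor genes. Neither the interferon response list (0 of 23, median -0.21) nor the proteasome subunits (0 of 34, median 0.16) had a call with limma, and at an unadjusted p under 0.05 they had 1 and 10.

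**Figure D3:**
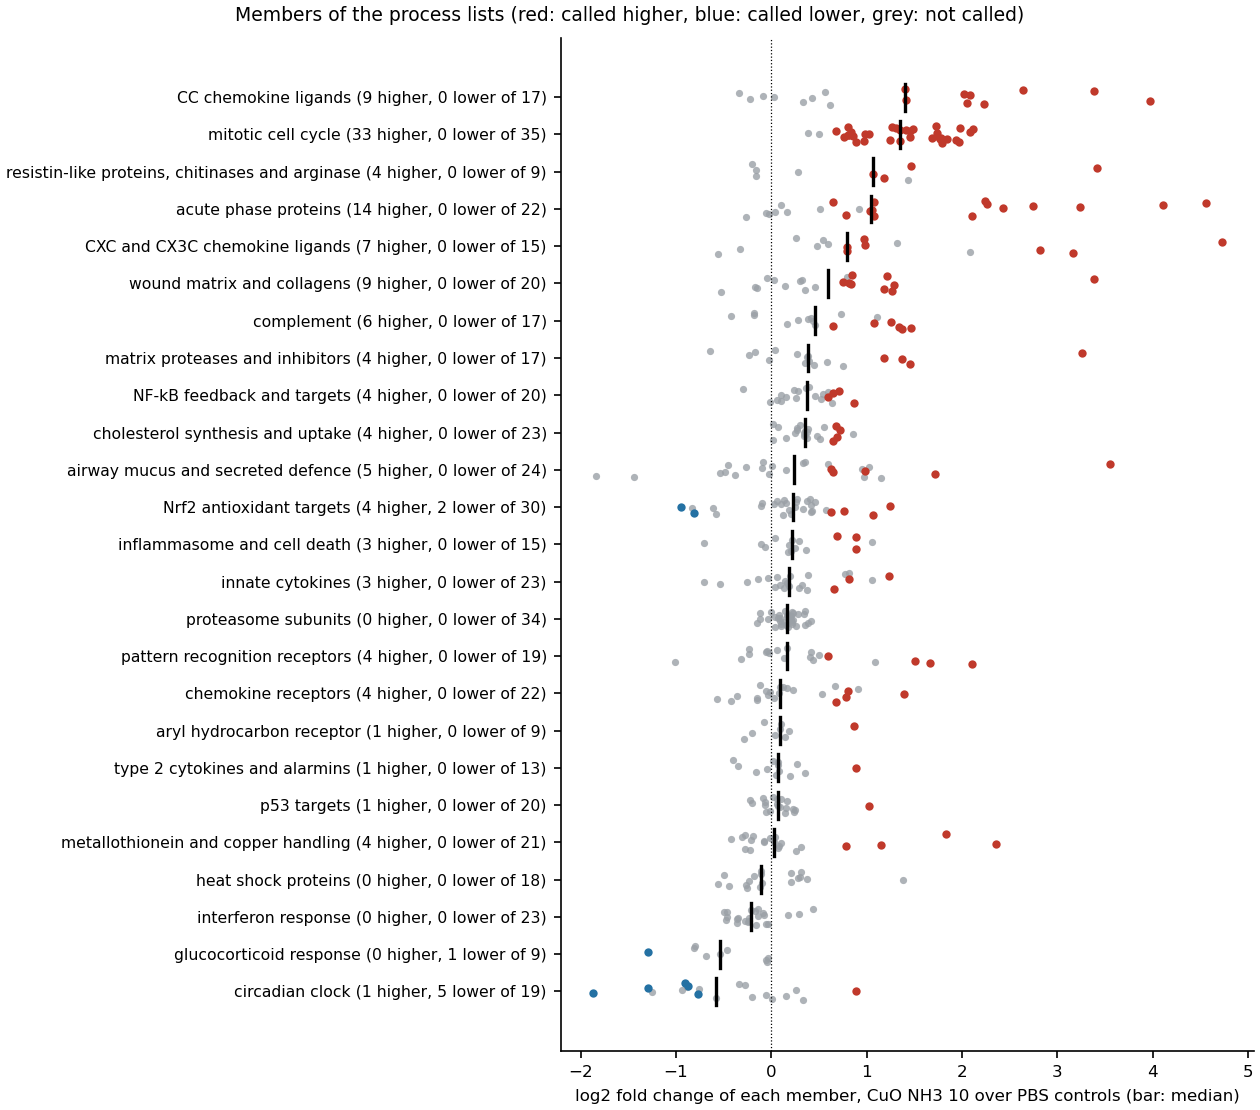
Each point is 1 measured member of a process list, at its log2 fold change of CuO NH3 10 over PBS controls on the x axis; red points were called higher, blue lower and grey not called, and the black bar is the median of the list. Medians run from 1.40 for the CC chemokine ligands to -0.58 for the circadian clock, and the mitotic cell cycle list has 33 of 35 members in red.

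Markers of lung cell types checked the tissue and showed which cell genes moved. All measured markers of alveolar type 1, alveolar type 2, club, ciliated, endothelial and alveolar macrophage cells were above background in all 11 samples. The eosinophil granule genes Epx and Prg3 were above background in none. Monocyte and interstitial macrophage markers had 8 of 15 called higher and none lower, among them the C1q genes, Vcan (1.03), Cx3cr1, Ccr2 and F13a1 (0.68). Of the 15 members 11 were positive, with a median log2 fold change of 0.68. The log2 of their summed intensity, to which bright members contribute most, overlapped between the groups (16.15 to 16.23 against 16.11 to 16.46). Of the alveolar macrophage markers 6 of 17 were called lower, Fabp1 (-1.60), Cidec (-1.37), the ribonucleases Ear2 (-1.30), Ear10 (-1.25) and Ear1 (-1.07) and the sialic acid receptor Siglecf (-0.93), while Fabp5 rose by 0.99. In this list 13 of 17 members were negative, with a median of -0.55. Its log2 summed intensity also overlapped between the groups (15.40 to 15.78 against 15.57 to 15.96). Siglecf was 8.39, 8.22, 8.19 and 8.56 against 8.85 to 9.33 (median 9.15), with a limma adjusted p of 0.000481. Lipid-associated macrophage markers had 5 of 13 higher, with Spp1 and the lipid receptor Trem2 (1.67 ± 0.22, adjusted p = 2.9e-05) in front, and Abcg1 lower (-0.77). Without CuO NH3 10 replicate 4, 1 monocyte and interstitial macrophage marker was called higher, 1 alveolar macrophage marker lower and 2 lipid-associated macrophage markers higher.

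Neutrophil markers were mostly positive, 16 of 20, with a median of 0.34. Of these markers 4 were called higher (Ltf, Clec4d at 1.67, Il1r2 at 1.49 and Mmp8 at 1.18) and the formyl peptide receptor Fpr2 lower (-0.91). Without CuO NH3 10 replicate 4, 1 was called higher. S100a8 (0.94 ± 0.50, limma adjusted p = 0.329), S100a9 (0.49 ± 0.49, adjusted p = 0.665), Elane and Mpo were not called, and the log2 summed intensity of the list overlapped between the groups (16.36 to 16.69 against 16.21 to 16.57). In the endothelial cell list Ramp2 was called lower (-0.72), all 16 members were below 0 with a median of -0.48, and the sums did not overlap (17.20 to 17.37 against 17.55 to 17.92). NK cell sums did not overlap either (11.75 to 12.23 against 12.35 to 12.96), without a called member. Among single genes 8.45% had every exposed sample below every control and 11% had every one above. Erythrocyte sums were also below all controls, at 16.22 to 16.91 against 16.94 to 17.58, with Epb42 above background in none of the 11 samples. The surfactant protein Sftpd was the 1 alveolar type 2 call (1.23 ± 0.15, adjusted p = 1.01e-05), at 17.06, 16.71, 16.64 and 16.91 against 15.89 to 16.05. The part of cell makeup in the gene changes above was not tested.

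Single calls came from the other cell lists: Cyp2f2 of club cells (-1.05), Clic5 of alveolar type 1 cells (-0.74), Tppp3 of ciliated cells (-0.81), Pf4 of platelets (0.97), and Col1a1 higher with Gsn lower (-0.74) in fibroblasts. Siglecf was also the 1 eosinophil list call. Platelet sums lay above all controls (11.86 to 12.23 against 11.22 to 11.46), and ciliated cell sums below all of them (14.23 to 14.32 against 14.52 to 14.87). Sums of lipid-associated macrophages (16.54 to 16.81 against 16.10 to 16.42) and alveolar type 2 cells (18.83 to 18.96 against 18.41 to 18.78) also lay above all controls. Eosinophil sums lay below them (9.54 to 9.77 against 9.88 to 10.15). T cell, B cell and plasma cell, dendritic cell, mast cell and basophil, NK cell, smooth muscle, mesothelial cell, heart and skeletal muscle, and adipocyte lists had no call with limma in either direction.

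**Figure D4:**
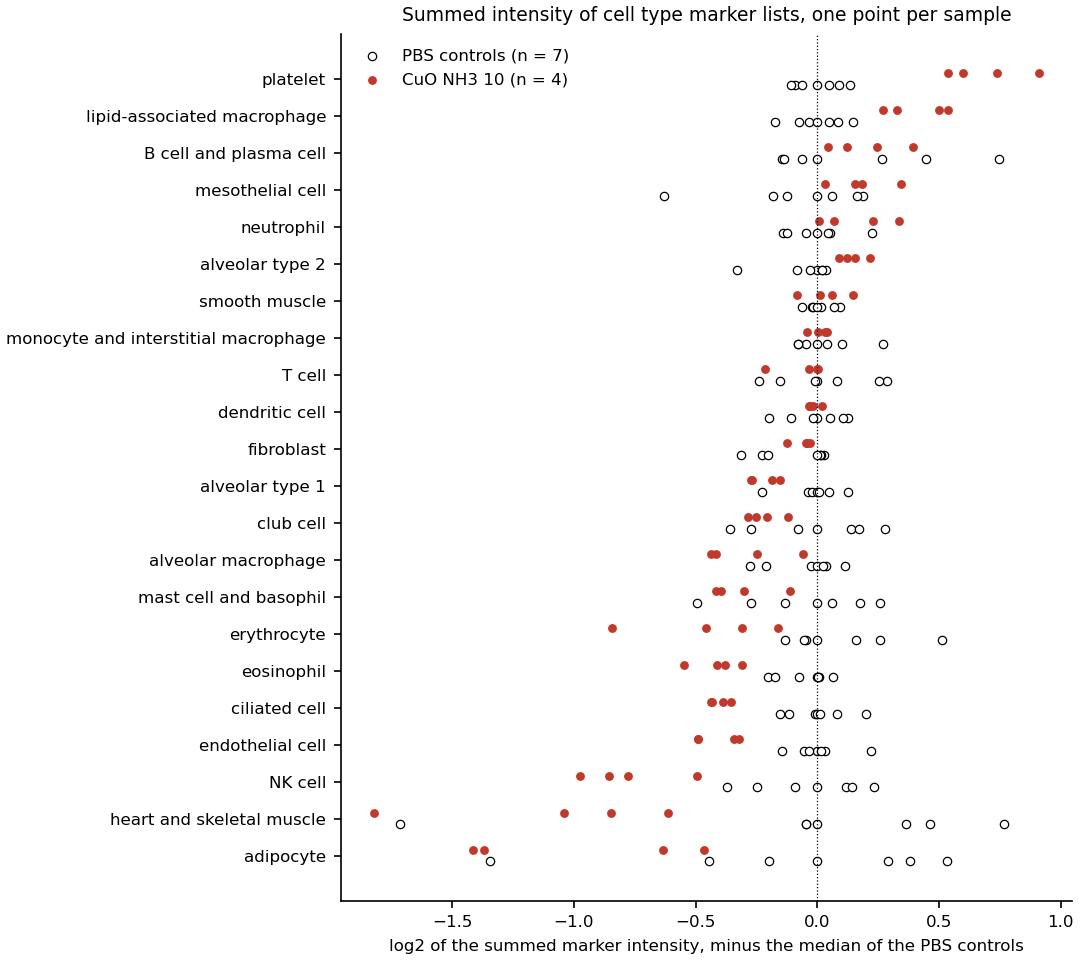
Log2 of the summed intensity of each cell type marker list on the x axis, 1 point per sample, relative to the median of the PBS controls (open, n = 7; CuO NH3 10 filled, n = 4). Endothelial and NK cell sums of the exposed samples lie below all controls, and monocyte and neutrophil sums overlap the controls.

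Among the 4 exposed samples the secreted airway protein Bpifa1 was the most variable gene (11.31, 10.08, 12.01 and 9.57, overlapping controls of 10.07 to 12.80), followed by Klhl30, Prkci and Fblim1, each driven by 1 sample: Klhl30 was 8.60 in replicate 1, and in replicate 4 Prkci (fitted log2 fold change -0.21) was 11.70 and Fblim1 6.26. The centromere gene Oip5, called higher, was 8.45 in replicate 3 and 6.73 to 6.96 in the others. Among the controls, heart muscle genes (Myl7, Myl4 and Sln), Hmox1, Saa3 and Reg3g were the most variable. The heart and skeletal muscle and adipocyte sums of exposed and control samples overlapped.

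Against the lower dose, CuO NH3 2.5 (n = 3), no gene was called by limma with dye and array fixed (0%), higher (0%) or lower (0%), and 1376 genes had an unadjusted p under 0.05. The count was not stable to the batch terms: 44 to 74 genes were called with the array as a random block, with dye and slide terms, with the replicate number as the block or with only the groups compared. Spp1 was 1.68 above the controls at 2.5 μg and 3.38 at 10 μg on the log2 scale, and that difference of 1.70 was not called (adjusted p = 0.226). Both doses share the PBS controls, and their effects stood side by side as follows. The median of the mitotic cell cycle list was 0.92 at 2.5 μg and 1.35 at 10 μg, with 21 and 33 members called. For the acute phase proteins it was 0.92 and 1.05, with 9 and 14 called, and Saa1 was 4.67 and 4.11. Cyp2a5 was -2.08 at 2.5 μg and -3.49 at 10 μg, and Igfbp3 -0.99 and -1.99. Over all genes CuO NH3 2.5 had 218 calls against the PBS controls.

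Against the higher dose, CuO NH3 40 (n = 3), 701 genes were called (3.06%), 309 higher at 10 μg (1.35%) and the rest lower (1.71%). The number fell to 106 without CuO NH3 40 replicate 2 and to 154 without its replicate 1. Both doses share the PBS controls. Of the 601 called higher over the controls 167 were lower than at 40 μg and 5 higher, and of the 160 called lower 38 were higher than at 40 μg and 2 lower. Retnlb, a resistin-like protein of goblet cells, was 1.47 over the controls at 10 μg and 4.74 at 40 μg (difference -3.27 ± 0.41, limma adjusted p = 0.000207). Arg1, the arginase of alternatively activated macrophages, was 1.43 and 4.58 (difference -3.15 ± 0.51, adjusted p = 0.00154). Kng1 and the growth factor Ereg were lower at 10 μg with differences of -1.95 and -1.92.

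In the other direction, the adipose protease Cfd was higher at 10 μg by 3.92 ± 0.90 (limma adjusted p = 0.0155), the club cell secretoglobin Scgb3a2 by 2.99 ± 0.57 (adjusted p = 0.00543), Car3 by 2.65 ± 0.69 (adjusted p = 0.0294) and Colq by 2.27 ± 0.30 (adjusted p = 0.000221). Cfd and Car3 also varied among the 4 exposed samples, Cfd being 9.73, 8.66, 9.89 and 8.58. In the mitotic cell cycle list 20 of 35 members were lower at 10 μg than at 40 μg, and their median over the controls was 1.35 at 10 μg and 2.22 at 40 μg. Of the club cell markers 5 of 6 were higher at 10 μg than at 40 μg, with medians of -0.35 and -1.77. By contrast Cxcl5 was 4.73 at 10 μg and 3.35 at 40 μg (difference 1.37, adjusted p = 0.176), and Saa3 4.56 and 4.53 (difference 0.03, adjusted p = 0.988). Metallothionein Mt1 was lower at 10 μg, with a difference of -0.90 (adjusted p = 0.00355) and so was Hmox1, with a difference of -1.36 (adjusted p = 0.00596).

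Core CuO at the same dose (CuO 10, n = 3) lacks the surface group of CuO NH3 10. Doses were set by the mass of the whole particle, so the copper given differed between the materials as well, and according to the study they also dissolved at different rates. No gene was called between the 2 materials by limma with dye and array fixed (0%), higher (0%) or lower (0%), and 844 had an unadjusted p under 0.05. The smallest adjusted p, 0.315, belonged to Hmox1, which was 1.25 over the PBS controls with CuO NH3 10 and 3.34 with CuO 10, a difference of -2.09 (95% interval -2.88 to -1.29). For the heat shock gene Hspa1a the values were 1.38 and 4.29 (difference -2.90, interval -5.01 to -0.80). Orm1 was 3.24 and 5.64 (difference -2.40, interval -4.11 to -0.69) and Clec4d 1.67 and 3.06 (difference -1.39, interval -2.16 to -0.62). These intervals are for single genes, unadjusted for the 22911 tested.

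For other genes the interval of the difference reached in both directions, and the wider intervals do not settle whether the materials differed. The difference for Cxcl5 was -0.49 (interval -2.15 to 1.18), for Spp1 -0.19 (-1.06 to 0.67), for Mki67 -0.07 (-0.61 to 0.46), for Mt2 -0.37 (-1.17 to 0.43), for Igfbp3 0.15 (-0.58 to 0.87) and for Cyp2a5 -1.11 (-2.69 to 0.47). Retnla was 3.42 with CuO NH3 10 and 2.29 with CuO 10 (difference 1.13, interval -0.36 to 2.62). The median SE of this contrast was 0.23, against 0.14 for the contrast with the PBS controls. CuO lay on slides 1 to 3 and CuO NH3 on slides 4 to 6, so material and slide cannot be told apart outside the link through shared groups, and calls numbered 1043 once the array became a random block but 34 to 37 with slide as a term.

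The same dose was also given to OVA-challenged mice (CuO NH3 10 + OVA, n = 3), with OVA-challenged mice without nanomaterial as their controls (n = 8). The effect of CuO NH3 10 differed between the challenges in 31 genes by limma's interaction term (0.135%), 9 with a more positive effect after OVA (0.0393%) and 22 with a more negative one (0.096%). The count was 0 without CuO NH3 10 replicate 4, 62 without CuO NH3 10 + OVA replicate 2 and 2 with controls of the same 3 slides. The direction also rested on 1 array: CuO NH3 10 + OVA replicate 3 and OVA control replicate 7 share it, and without either sample 28 genes had a more positive effect after OVA and 0 a more negative one, with 1 gene shared with the 31. Without CuO NH3 10 + OVA replicate 1 the split was 14 and 9. The values that follow, mitotic and histone genes included, are those with all samples. Mki67 was 2.08 after PBS challenge and 0.62 after OVA challenge (difference -1.46, 95% interval -1.89 to -1.04, adjusted p = 0.00374). Birc5 was 1.97 and 0.44 (difference -1.53, adjusted p = 0.0143) and Rrm2 2.12 and 0.72 (difference -1.40, adjusted p = 0.0269). In all, 7 of 35 mitotic cell cycle genes were among the 31, none in the other direction, and OVA alone had raised Mki67 by 2.23 over the PBS controls.

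The histone genes H1f5 (2.09 and 0.46) and H2ac23 (1.70 and 0.25), picked after their values were seen, were also among the 22. Slc26a4 had the largest difference of the 31 genes, 3.55 after PBS and 1.03 after OVA challenge (-2.53, interval -3.59 to -1.47, limma adjusted p = 0.042), and OVA alone had raised it by 4.36. Gm16513 was not above background in any of the 11 PBS-challenged samples. The eosinophil granule genes went the other way: Epx was 0.17 and 2.40 (difference 2.23, adjusted p = 0.00374) and Prg2 -0.08 and 1.55 (1.64, adjusted p = 0.0378). After PBS challenge Prg2 was above background in 1 of 4 exposed samples and 3 of 7 controls. Siglecf, on both the eosinophil and the alveolar macrophage list, fell after PBS challenge but not after OVA challenge (-0.93 and 0.09, difference 1.02, adjusted p = 0.0378). The lysosomal protease Ctsl was 0.33 and 2.04 (1.70, adjusted p = 0.0378), and Serpina11 0.08 and 1.36. Saa3 (4.56 and 1.79, difference -2.77, adjusted p = 0.269), Saa1 (4.11 and 1.64, difference -2.47, adjusted p = 0.131), Retnla (3.42 and 0.90, -2.52, adjusted p = 0.0965) and Ccl17 (2.05 and 0.18, -1.86, adjusted p = 0.0565) had large differences that were not called.

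**Figure D5:**
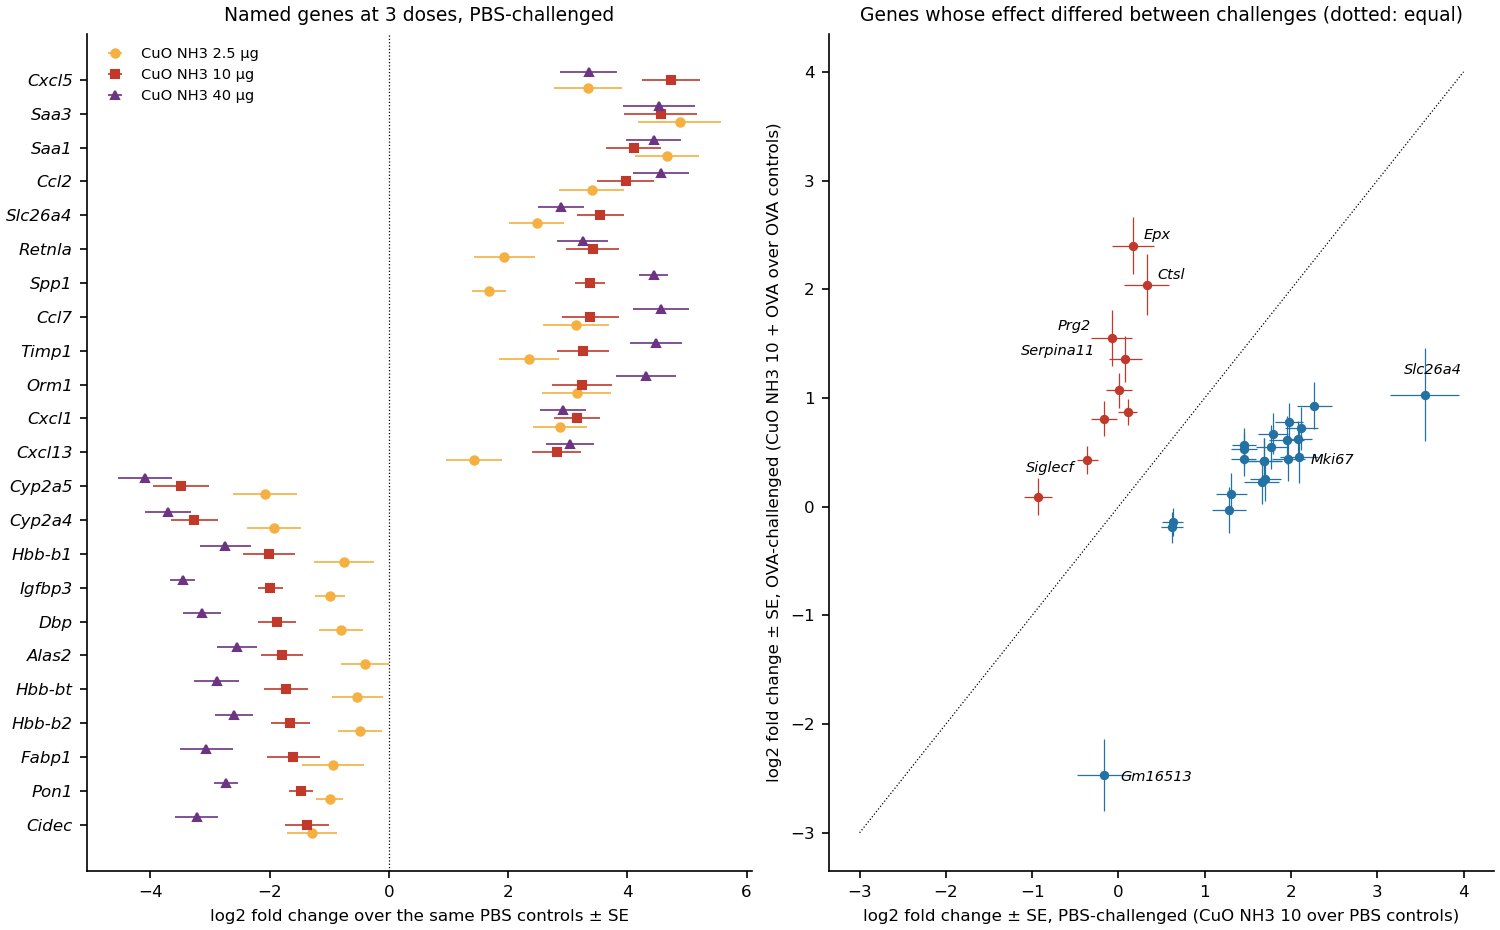
Left, log2 fold change ± SE of 23 named genes over the same PBS controls at 2.5, 10 and 40 μg per mouse per day (n = 3, 4 and 3). Right, the 31 genes whose effect differed between challenges, with the effect in PBS-challenged mice on the x axis and in OVA-challenged mice on the y axis (± SE; dotted line, equal effects): Mki67 lies at 2.08 and 0.62, and Epx at 0.17 and 2.40.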

How the data were processed

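The authors deposited Agilent Feature Extraction output per array, holding for every spot the intensity of foreground and local background in both channels, and a table of log2 values per probe and sample. That deposited table equals the log2 median foreground after quantile normalization over all spots, with no batch adjustment (largest difference 5e-09). According to their methods, the authors then applied ComBat to labelling and array effects and kept both as terms in limma; ComBat was not used here.

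For the fits, the foreground medians were put on the log2 scale and quantile normalized across 89 samples, and probes were averaged per gene: 32994 of 56605 probes named 22911 genes through RefSeq accessions. limma 3.58.1 (R 4.3.3) fitted 26 groups with dye and array on 17 residual degrees of freedom. Scripts were tested on simulated data. Depth on arrays is signal over background: the median foreground was 62 to 130 in Cy3 and 70 to 203 in Cy5, 1.38 to 4.34 times the background, with 0 saturated spots. The number of arrays limits the precision.

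Named genes are the 12 largest rises and the 12 largest falls among called genes whose groups do not overlap, up to 4 called members of each list with the largest change and its defining members, and for the other comparisons the 4 largest in each direction among called genes whose samples do not overlap; further values were chosen after they were seen. Some members counted are not reported here by name. Exposed members and the 25 process and 22 cell lists were chosen with earlier results of these data known, so list counts are descriptions and no list was tested. Promoters came from RefSeq tables (GRCm38.p6) and 18077 of 22911 genes matched.

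Alternatives were the array as a random block, slide and position terms, the replicate number as a block, normexp with an offset of 50, loess, dim probes left out, the deposited values, controls of the same 3 slides, only the groups compared, and each sample left out. Leaving out control and outlier spots before normalization was added after seeing the data.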

Additional observations from a re-analysis of the deposited data

Results flagged for a closer look

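Of 24 named genes in 48 groups, 2 had 1 sample far from the others of its group, where chance gives about 1 group in 20. In the PBS controls 1 sample of Saa1 stood at 9.43 while the median was 8.54, the gap being 0.667 of the range. In the CuO NH3 10 samples, Cxcl13 was 11 in replicate 3 and 9.69 to 9.87 in the other 3, a gap of 0.857 of the range.

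The effect of CuO NH3 10 differed between OVA- and PBS-challenged mice in 31 genes by limma's interaction term, and Slc26a4, whose effect after OVA challenge was lower by the interaction value of -2.53, was the named rise among them. The causes of these values were not tested.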

How the results depend on the processing

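The comparison with the PBS controls gave 610 to 934 calls under another batch model (the replicate block apart), background correction, normalization or filter, and 506 with controls of the same 3 slides only. Leaving out 1 sample gave 271 to 819. Of the 24 named genes 17 were called without CuO NH3 10 replicate 4 (Orm1, Hbb-b1, Alas2, Hbb-bt, Hbb-b2, Fabp1 and Cidec were lost). Against CuO NH3 2.5 the count of 0 became 44 with the array as a random block, 74 with dye, slide and array position, 70 with dye and slide, and 53 with only the groups compared, and stayed at 0 on leaving out any 1 sample. Against CuO NH3 40 it was 1129, 1111 and 1103 under the last 3 of these, and 106 to 606 on leaving out 1 sample. Against CuO 10 the same 4 settings gave 1043, 37, 34 and 1092, and leaving out 1 sample 0 to 1. The difference between challenges was 154, 203, 215 and 59 under these settings, 19 with loess, 2 with controls of the same 3 slides only, and 0 to 62 on leaving out 1 sample. The cause of these shifts was not tested. With loess Fth1 turned to -0.02. Of 22 alternatives 7 or more took the call from Fabp1, Cidec, Per1, Per3, Cyp2f2, Ear1, Clic5, Tppp3 and Ramp2 among the falls, and from Pf4, Ccr2, Ackr1, Saa4, Hpx, Il1rn, Csf2, Nfkbie, Tnfaip3, Fth1, Mmp12, Chil1, Ltf, Pigr, Sqle, Cyp51, Cyp1b1, Lgals3 and Tlr13 among the rises.

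With the replicate number as a block the counts were 1612 against the PBS controls (943 higher and 669 lower, 58.5% higher against 79% without the block), 47 against CuO NH3 2.5, 1149 against CuO NH3 40, 890 against CuO 10 and 139 between challenges, and Ccr2 and C1ra turned to -0.08 and -0.19. Same-numbered CuO NH3 10 and PBS samples correlated at 0.17, 0.09, 0.03 and 0.20 in their deviations from the group means, and none correlated best with its own number. None did with CuO NH3 40 either. Replicate 1 correlated best with its own number in CuO NH3 2.5 (0.15) and CuO NH3 10 + OVA (0.18). In CuO 10 replicates 1 and 2 did so (0.08 and 0.11). Whether the number marks a block was not settled by these correlations. Array signal over background limits dim genes: 13 genes called higher were above background in no control.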
